A study of Mus musculus with 192 samples.

Results

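The cytosolic ribosomal protein genes were described in single erythroid progenitors of the mouse fetal liver. A row of the count table was a member when its symbol was Rpl, Rplp or Rps followed by a number, with or without a closing paralog letter or digit, or was Rpsa. This rule found 88 of 49466 rows, 52 of the large subunit (Rpl and Rplp) and 36 of the small subunit (Rps and Rpsa). By the GENCODE M21 annotation of GRCm38, 83 members are protein coding and 5 (Rps4l, Rps12l1, Rps3a2, Rps3a3 and Rpl6l) are pseudogenes. Members were chosen by name and not by level.

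All cells came from C57/Bl6J fetuses at embryonic day 14.5, with no genetic change or treatment named in the labels, after depletion of cells bearing lineage antigens, Sca-1, CD16/32 or CD41, a stain for CD117, CD71 and CD24 and a single-cell sort. One 96-well plate held colony-forming units-erythroid (CFU-E), late progenitors that give rise to the first recognisable erythroblasts, and the other held the earlier progenitors from which CFU-E descend, burst-forming units-erythroid (BFU-E). Libraries were made by SmartSeq2, which copies polyadenylated RNA over its full length and marks neither strand nor molecule. The labels name neither the animals nor the sort gates, each plate was sequenced on its own lane with the same 96 index pairs, and cell type, plate and lane therefore cannot be told apart. Each cell type was 1 sample and no test was made. Intervals (exact, 95%) cover counting error alone, since amplified reads are not independent molecules.

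Ribosomal proteins are made in near-equal numbers, and their mRNAs are among the most abundant in growing cells. Most of these mRNAs begin with a run of pyrimidines, the 5′ terminal oligopyrimidine tract, through which nutrient and growth factor signals set their translation as a group. Erythroid progenitors depend strongly on this supply: in humans, loss of a single copy of any of several ribosomal protein genes causes Diamond-Blackfan anaemia, a failure of red cell production that begins among erythroid progenitors.

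Of the wells, 89 CFU-E cells of 95 and 92 BFU-E cells of 96 held at least 100000 counts and 2000 genes. The kept cells held 131891 to 2992101 counts in CFU-E cells and 114288 to 3864040 in BFU-E cells, and each was thinned to 100000 counts, so that 1 count equals 10 counts per 1000000 (CPM) in a cell. The 12 erythroid markers summed to 13674 CPM in CFU-E cells and 1629 CPM in BFU-E cells, and all 12 had counts on both plates. The 12 granulocyte-monocyte markers summed to 2.92 CPM in CFU-E cells, with Cebpe, Csf3r, Ctsg, Elane, Fcgr3, Mpo and Ms4a3 at 0, and to 2406 CPM in BFU-E cells. The BFU-E plate held a cluster of 37 granulocyte-monocyte-like (GM-like) cells, with Csf1r, Cd33 and Ccr2 among its leading genes, at 5659 CPM of these markers and 367 CPM of the erythroid ones. The other 55 BFU-E cells, led by Mfsd2b, Car1 and Epor, had 218 CPM of the granulocyte-monocyte markers and 2478 CPM of the erythroid ones. The 14 lymphoid markers summed to 112 CPM in CFU-E cells and 77.1 CPM in BFU-E cells, and 3 CFU-E cells had counts of at least 3 of them.

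Together the 88 genes took a similar share of counts on both plates. They made up 5.11% of the summed counts in CFU-E cells (95% interval 5.10 to 5.12%), 4.94% in all BFU-E cells (4.93 to 4.96%) and 5.28% in the other BFU-E cells (5.27 to 5.30%). Per cell, the share had a lowest value, median and highest value of 2.91%, 4.91% and 12.2% in CFU-E cells and of 2.98%, 4.38% and 24.8% in BFU-E cells. The ranges overlapped almost fully. A single BFU-E cell of the other group, the shallowest one kept (114288 counts, 4517 genes), held the 24.8%. Without it the BFU-E share was 4.72%, and that of the other BFU-E cells was 4.92%, below CFU-E cells where it had been above them. Mitochondrially encoded genes took a mean of 5.24% of counts in CFU-E cells and 3.58% in BFU-E cells. Over counts outside those genes, the log2 ratio of the member share in CFU-E cells was 0.073 over that in all BFU-E cells and −0.024 over that in the other BFU-E cells, against 0.048 and −0.049 over all counts.

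**Figure D1:**
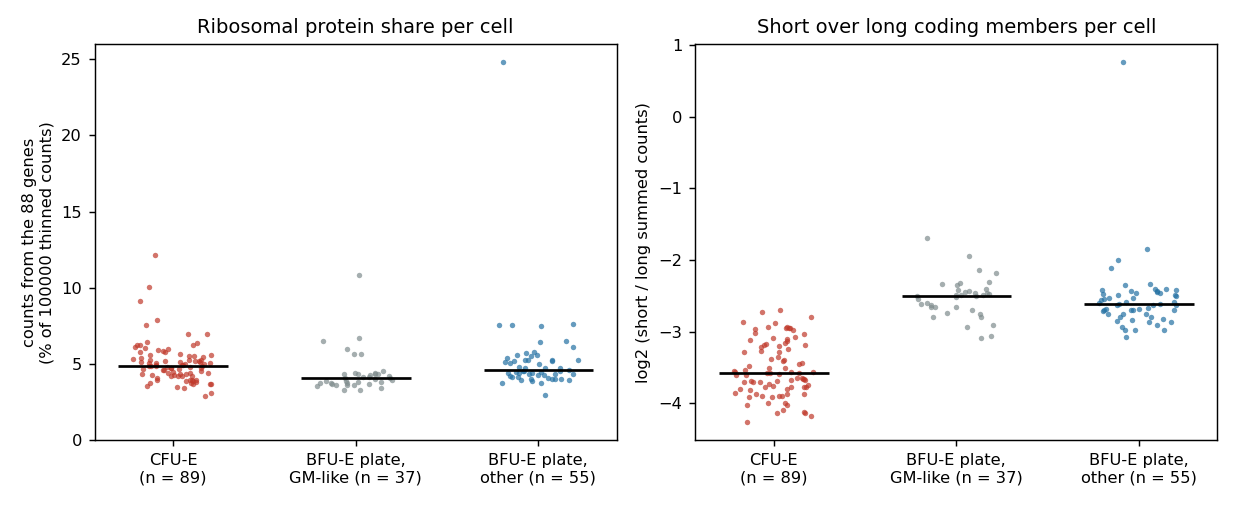
Left, the share of each cell's 100000 thinned counts that came from the 88 genes; right, the log2 ratio of summed counts of short members (coding length under 400 bases) to long members (at least 700 bases). Each point is 1 cell, black lines are medians, and GM-like stands for granulocyte-monocyte-like. Shares overlap between groups apart from 1 BFU-E cell at 24.8%, while all 89 CFU-E cells lie below the BFU-E median of −2.59 on the right.

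The similar total hid a different makeup. Rpl4 and Rplp0 alone took 1.68% of counts in CFU-E cells (1.68 to 1.69%) and 0.750% in BFU-E cells (0.744 to 0.756%), whereas the remaining members took 3.43% in CFU-E cells and 4.19% in BFU-E cells. Of the 82 members measured (a mean of at least 5 CPM over both cell types), 2 were higher in CFU-E than in BFU-E cells by 2-fold or more and 21 lower, where 6.43% of all 9445 measured genes were that much higher and 34.3% that much lower. Both shares of members thus lay below the share over all genes. At 1.5-fold, 4 members were higher and 42 lower, beside 11.8% and 50.2% of all genes. The median log2 fold, taken on log2(CPM + 1), was −0.63 over the members and −0.57 over all measured genes. Against the other BFU-E cells, 1 member was higher by 2-fold or more and 24 lower, with 6.08% and 31.6% over all 9158 genes measured there. At 1.5-fold, 3 were higher and 47 lower, with 11.6% and 48.8% over all genes, and the member median was −0.74 beside −0.54. Without the 1 BFU-E cell of highest share, the counts against all BFU-E cells were 2 higher and 13 lower, where 6.42% and 34% of all genes were, and the median was −0.51.

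The median over all genes lay well below 0. Under TMM scaling (trimmed mean of M values) and under median-of-ratios scaling the all-gene median was 0.01 and 0.07, and members then stood at 4 higher and 8 lower (TMM, where 15.2% of all genes were higher and 18.6% lower) or 4 and 4 (median-of-ratios, 16.9% and 17.4%). Folds below are on total counts, and a log2 fold of −0.57 marks the middle of all genes.

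Rpl4 and Rplp0 led both plates. Rpl4, a large subunit protein that lines part of the tunnel through which the new chain leaves the ribosome, had a lowest, median and highest cell of 5040, 9580 and 18200 CPM among CFU-E cells and 2260, 3990 and 6940 CPM among BFU-E cells. Every one of the 89 CFU-E cells exceeded the BFU-E median, although the ranges overlapped. Its summed level was 9644 CPM (9580 to 9709) in CFU-E cells and 4065 CPM (4024 to 4106) in BFU-E cells. Their ratio was 2.37 (2.34 to 2.402), a log2 fold of 1.25. Against the other BFU-E cells, at 4329 CPM, the log2 fold was 1.16. Rplp0, the base of the stalk that recruits elongation factors, had 3330, 6930 and 18740 CPM as lowest, median and highest CFU-E cell and 1430, 3170 and 8440 CPM in BFU-E cells. Here too all 89 CFU-E cells lay above the BFU-E median. The sums were 7205 CPM in CFU-E cells and 3435 CPM in BFU-E cells, and their ratio was 2.10 (2.07 to 2.13), a log2 fold of 1.07. Without the BFU-E cell of highest share, the log2 folds of Rpl4 and Rplp0 were 1.24 and 1.08. Rpl4 (ENSMUSG00000032399) lies on chromosome 9 from 64173375 to 64178666 and Rplp0 (ENSMUSG00000067274) on chromosome 5 from 115559467 to 115563727, both on the plus strand of GRCm38.

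The order of levels also differed. Per kilobase of annotated transcript, the 5 highest in CFU-E cells were Rpl4 (6271 CPM per kb), Rplp0 (5305), Rpl3 (2704), Rps4x (2233) and Rpsa (1588). This scaling does not account for reads that match several near-identical copies, so the order between genes is uncertain. In BFU-E cells Rpl4 (2643 CPM per kb), Rps4x (2631) and Rplp0 (2529) lay close together, followed by Rpl3 (2274). Rpl3, a protein near the peptidyl transferase centre, had 3653 CPM in CFU-E cells and 3073 CPM in BFU-E cells, a log2 fold of 0.25, and 67 of 89 CFU-E cells exceeded the BFU-E median. Rpsa, a small subunit protein also known as a laminin receptor, had 3078 CPM in CFU-E cells and 2719 CPM in BFU-E cells. Rps4x, encoded on the X chromosome, had 2177 CPM in CFU-E cells and 2565 CPM in BFU-E cells, a log2 fold of −0.24 on total counts and 0.34 under TMM scaling.

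Further members on the higher side were Rpl13a, Rps27a and Rps12. Rpl13a, known also for its part in translational control under interferon-gamma, had 10, 90 and 250 CPM as lowest, median and highest CFU-E cell and 0, 50 and 160 CPM in BFU-E cells. The cells overlapped, with 75 CFU-E cells above the BFU-E median, and the log2 fold was 0.68. Rps27a, made as a fusion to ubiquitin, summed to 706 CPM in CFU-E cells and 467 CPM in BFU-E cells, a log2 fold of 0.60, with 86 of 89 CFU-E cells above the BFU-E median. Its fold was 0.73 without the BFU-E cell of highest share, which alone held 10.1% of the BFU-E counts of this gene. Rps12, a small subunit protein, had 326 CPM in CFU-E cells and 276 CPM in BFU-E cells.

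At the low end stood members with short coding sequences. Rpl38, a small protein of the large subunit whose loss alters skeletal patterning in mice, had 0, 10 and 60 CPM as lowest, median and highest CFU-E cell and 0, 40 and 1100 CPM in BFU-E cells. A CFU-E cell of median level thus held 1 count, and 84 CFU-E cells lay under the BFU-E median. The summed level was 14.4 CPM (11.999 to 17.1) in CFU-E cells and 61.5 CPM (56.6 to 66.8) in BFU-E cells, 4.28-fold lower (3.53 to 5.22), or a log2 fold of −2.02. Rps28, a small subunit protein near the path of the mRNA, had 0, 30 and 120 CPM as lowest, median and highest CFU-E cell and 10, 70 and 3850 CPM in BFU-E cells. It summed to 30.6 CPM in CFU-E cells and 123 CPM in BFU-E cells, a log2 fold of −1.98. The BFU-E cell of highest share held 33.98% of all BFU-E counts of Rps28, and without it the BFU-E level was 82.2 CPM and the log2 fold −1.40. For Rpl38 that cell held 19.4%, and the log2 fold without it was −1.73.

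Rps29, Rps27 and Rpl39 were also among the 6 lowest. Rps29, a zinc-binding protein of the small subunit head, had 45.1 CPM in CFU-E cells and 147 CPM in BFU-E cells, a log2 fold of −1.69 and of −1.34 without the highest-share cell. Rps27, also zinc-binding, had 33.7 CPM in CFU-E cells and 109 CPM in BFU-E cells, at −1.66 and −1.19. Rpl39, a very small protein of the exit tunnel, had 63.4 CPM in CFU-E cells and 197 CPM in BFU-E cells, at −1.62 and −1.26. For each of these 3 genes, 81 to 85 of the 89 CFU-E cells lay under the BFU-E median, so the direction did not rest on that 1 cell. Below the middle of all genes also stood Rpl36a (−1.59), Rpl35a (−1.57), Rps15 (−1.38), Rpl34 (−1.37), Rps21 (−1.36) and Rps25 (−1.29). These are log2 folds of CFU-E over all BFU-E cells with the highest-share cell included. For Rps15, the level in the other BFU-E cells was 405 CPM with that cell and 280 CPM without it. Under TMM scaling the folds of Rpl38 and Rps28 were −1.47 and −1.41.

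**Figure D2:**
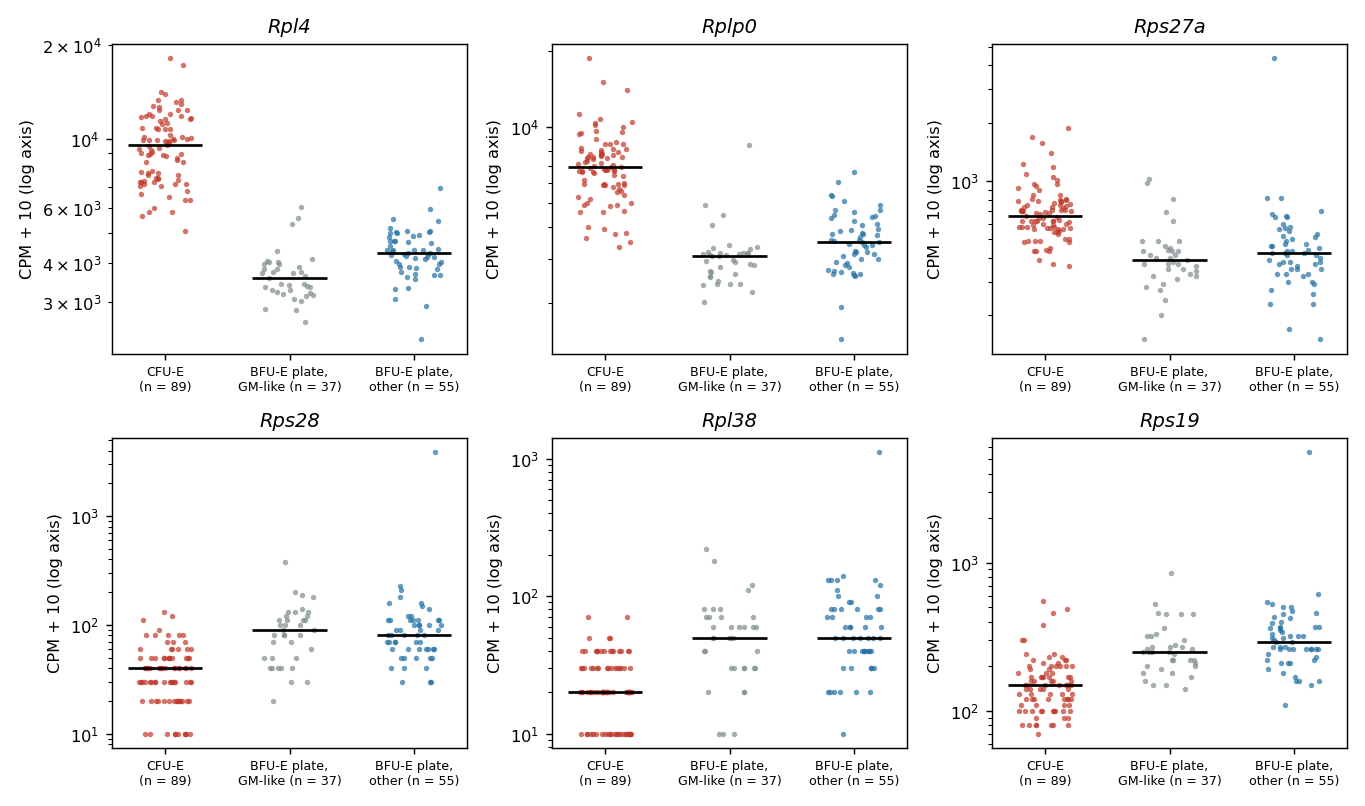
Level of 6 members in each cell, in CPM of 100000 thinned counts plus 10, on a log axis; each point is 1 cell and black lines are group medians. All CFU-E cells lie above the BFU-E median for Rpl4 and Rplp0, most lie above it for Rps27a, and most lie below it for Rps28, Rpl38 and Rps19; 1 BFU-E cell stands far above the rest in 4 of the panels.

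The sequences around the transcript starts of members at the 2 ends of this range are given because the pyrimidine tract at the start is the element these mRNAs are known to share. Each runs 5′ to 3′ over 40 bases before and 30 bases from the first RefSeq start listed for the gene in GRCm38.p6. Other starts of a gene were not searched. Capitals mark CTTTCC, a short pyrimidine motif searched on both strands anywhere in the window, whose matches do not overlap one another.
Rpl4 (chr9:64173347-64173416, plus strand): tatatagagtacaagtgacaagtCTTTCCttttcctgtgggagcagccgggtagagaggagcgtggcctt
Rplp0 (chr5:115559427-115559496, plus strand): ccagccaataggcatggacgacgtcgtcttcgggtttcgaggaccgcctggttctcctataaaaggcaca
Rpl38 (chr11:114668540-114668609, plus strand): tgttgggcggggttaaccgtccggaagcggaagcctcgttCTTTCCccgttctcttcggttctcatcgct
Rps28 (chr17:33824533-33824602, minus strand): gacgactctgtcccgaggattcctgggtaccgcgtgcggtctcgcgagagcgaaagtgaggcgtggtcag
Rps27 (chr3:90213619-90213688, minus strand): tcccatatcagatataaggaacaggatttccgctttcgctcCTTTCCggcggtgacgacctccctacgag
Of the 63 members with a start in the RefSeq table, 11 held CTTTCC on the sense strand of this window (17.5%), against 885 of 26962 other genes (3.28%). On the antisense strand 2 members (3.17%) and 794 other genes (2.94%) held it. Both the highest member, Rpl4, and the lowest, Rpl38, carried the motif in the window. For Rpl4 it lay before the RefSeq start, whereas for Rpl38 it began at that start. The median log2 fold was −0.86 over 10 measured members with the motif in the window and −0.67 over 50 without it. A window without this motif can still hold another pyrimidine run, which was not searched.

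Within the stalk, the folds of the base and of its partners differed. Rplp1 and Rplp2 are the acidic proteins that sit on Rplp0 in pairs, and both had lower log2 folds than Rplp0 (1.07). Rplp1 had 120, 290 and 850 CPM as lowest, median and highest CFU-E cell and 130, 300 and 3870 CPM in BFU-E cells, and the cells overlapped nearly fully. Its log2 fold was −0.24, −0.09 without the highest-share cell and 0.34 under TMM scaling. Rplp2 summed to 118 CPM in CFU-E cells and 218 CPM in BFU-E cells, a log2 fold of −0.88, and 71 of 89 CFU-E cells lay under the BFU-E median.

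Rpl5 and Rpl11 bind 5S ribosomal RNA and, when they are in excess, the p53 ligase Mdm2. Rpl5 had 450, 1090 and 2440 CPM as lowest, median and highest CFU-E cell and 500, 1250 and 3290 CPM in BFU-E cells, a log2 fold of −0.16 that turned to 0.42 under TMM scaling. Rpl11 had 266 CPM in CFU-E cells and 426 CPM in BFU-E cells, a log2 fold of −0.68. Neither passed 2-fold, and Rpl11 was the lower of the pair in log2 fold.

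Genes mutated in human Diamond-Blackfan anaemia numbered 21 among the members, all measured. None was higher in CFU-E than in BFU-E cells by 2-fold or more and 9 were lower (42.9%, beside 6.43% higher and 34.3% lower over all genes), and their median log2 fold was −0.87; among the 61 measured members outside the list, 2 were higher and 12 lower, and the median was −0.50. Without the highest-share cell 5 of the 21 were lower (23.8%, beside 34% of all genes), and under TMM scaling 5 were lower, beside 18.6%. The listed genes have shorter coding sequences, with a median of 405 bases beside 471 bases, and the part of length in this difference was not tested. Rps28, Rps29 and Rps27, given above, were among the lowest of the list. Rps19, the gene most often mutated in the disease, had 60, 140 and 540 CPM as lowest, median and highest CFU-E cell and 100, 260 and 5560 CPM in BFU-E cells. Of 89 CFU-E cells, 83 lay under the BFU-E median. Its sums were 152 CPM (145 to 161) in CFU-E cells and 346 CPM (334 to 358) in BFU-E cells, a log2 fold of −1.18 that was −0.92 without the highest-share cell and −0.61 under TMM scaling, so that its place past 2-fold depended on both.

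Members with longer coding sequences had higher folds. Over 80 measured members with an annotated coding sequence, the Spearman correlation of log2 fold with coding length was 0.67, with transcript length 0.42 and with the log2 level itself 0.55; the genes share their cells and plates, so these values describe the plates only. It was 0.64 without Rpl4 and Rplp0, 0.58 without the highest-share cell and 0.68 among the 39 members for which under 50% of their sequence windows were shared with other genes. Of 27 measured short members (coding length under 400 bases), 13 were lower in CFU-E cells by 2-fold or more (48.1%) and none higher, where 34.3% of all genes were lower and 6.43% higher. Of 38 members between 400 and 700 bases, 0 were higher and 8 lower (21.1%), and of 15 members of at least 700 bases, 2 were higher and 0 lower. Without the highest-share cell 11 short (40.7%) and 2 middle members (5.26%) were lower, beside 34% of all genes. Under TMM scaling 7 short (25.9%) and 1 middle member (2.63%) were lower, beside 18.6%. Under median-of-ratios scaling 4 short (14.8%) and 0 middle members were lower, beside 17.4%, so the share of short members was then below that of all genes. Single short members departed from the low folds of their class on total counts. Rps12 had a log2 fold of 0.24, and Rps20, Rplp1 and Rpl31 had folds of 0.00039, −0.24 and −0.26. Rpl41, the shortest coding sequence of all at 75 bases, had 191.9 CPM in CFU-E cells and 233 CPM in BFU-E cells; its log2 fold of −0.28 turned to 0.11 without the highest-share cell, which held 24.6% of its BFU-E counts.

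**Figure D3:**
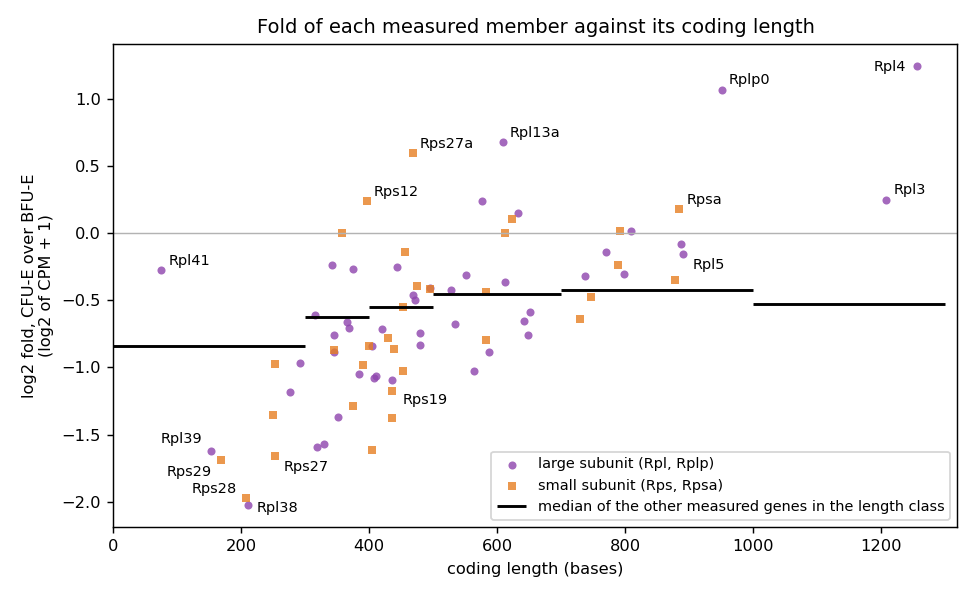
Log2 fold of CFU-E over all BFU-E cells for each measured member against its coding length in bases; circles are large subunit and squares small subunit genes, and black bars give the median of the other measured genes in each length class. Members run from about −2 at 200 bases (Rpl38 at −2.02) to 1.25 for Rpl4; the medians of the other genes lie between −0.84 and −0.42.

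Folds of other genes were also low in the shortest classes. Among genes outside the family, the median log2 fold was −0.84 for 173 genes with a coding length under 300 bases and −0.42 for 1237 genes of 700 to 1000 bases, while members of these classes had −1.49 (10 genes) and −0.16 (13 genes). By transcript length, other genes under 500 bases had a median of −1.20 (23 genes) and those of 1000 to 2000 bases one of −0.42 (1791 genes), beside −1.60 and −0.35 for the members. Between 500 and 700 bases of transcript the order turned, with −0.99 for 109 other genes and −0.66 for 15 members. Over all 8904 other genes with a length the Spearman correlation was −0.08 with coding length, since the longest genes were again lower. The part of this dependence on transcript length in the folds of single members was not tested.

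The short and long members also separated the plates cell by cell. Short members took 0.301% of counts in CFU-E cells (0.298 to 0.305%) and 0.507% in BFU-E cells (0.502 to 0.511%), and long members took 3.44% in CFU-E cells and 2.57% in BFU-E cells. Rpl4 and Rplp0 are both long members and alone took 1.68% in CFU-E cells and 0.750% in BFU-E cells. The higher long-member share in CFU-E cells thus rested on these genes, and the ratio below includes them. Its value per cell without them was not computed. The log2 ratio of short to long counts had a lowest value, median and highest value of −4.27, −3.57 and −2.70 over CFU-E cells and of −3.08, −2.59 and 0.77 over BFU-E cells. All 89 CFU-E cells lay under the BFU-E median, and 74 of them lay under the lowest BFU-E cell. In the GM-like cells the median ratio was −2.51 and in the other BFU-E cells −2.62, so the ratio was alike in both clusters of that plate. The BFU-E cell at 0.77 is the one of highest share, with 6.59% of its counts from short members.

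Paralogs of ribosomal protein genes ranged from above the level of their parent to 0. Rpl22l1 had 57.9 CPM in CFU-E cells and 92.3 CPM in BFU-E cells, and its parent Rpl22, an RNA-binding protein known for its role in lymphocyte development in mice, had 107 CPM in CFU-E cells and 221 CPM in BFU-E cells. The log2 folds were −0.66 for the paralog and −1.05 for the parent. Per kilobase of transcript the paralog was the higher of the 2 on both plates, with 105 against 51.9 CPM per kb in CFU-E cells and 167 against 108 CPM per kb in BFU-E cells. Rps27l, a paralog of Rps27 induced by p53, had 26.1 CPM in CFU-E cells and 52.3 CPM in BFU-E cells, a log2 fold of −0.98 where Rps27 had −1.66. Rpl7l1 had 228 CPM in CFU-E cells and 284 CPM in BFU-E cells, a log2 fold of −0.32 on total counts and 0.25 under TMM scaling. Its parent Rpl7 had 1480 CPM in CFU-E cells and 1461 CPM in BFU-E cells.

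Paralogs known from other tissues were near or at 0. Rpl3l, which belongs to striated muscle, had 0.112 CPM in CFU-E cells and 0.761 CPM in BFU-E cells, and in BFU-E cells all of its counts came from GM-like cells. No count of Rpl39l and Rpl10l, known from the testis, was seen in CFU-E cells; in BFU-E cells Rpl39l had 0.109 CPM and Rpl10l no count. The floor set for a group, 3 summed counts, equals 0.337 CPM in CFU-E cells and 0.326 CPM in BFU-E cells. Their parents Rpl39, Rpl3 and Rpl10 were all measured, Rpl10 at 569 CPM in CFU-E cells and 898 CPM in BFU-E cells. Of the 5 pseudogenes, Rps4l had 35.1 CPM in CFU-E cells and 36.4 CPM in BFU-E cells, Rps3a2 had 6.52 CPM in CFU-E cells and 5.76 CPM in BFU-E cells, Rps3a3 and Rpl6l stayed under 5 CPM on both plates, and Rps12l1 had no count.

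**Figure D4:**
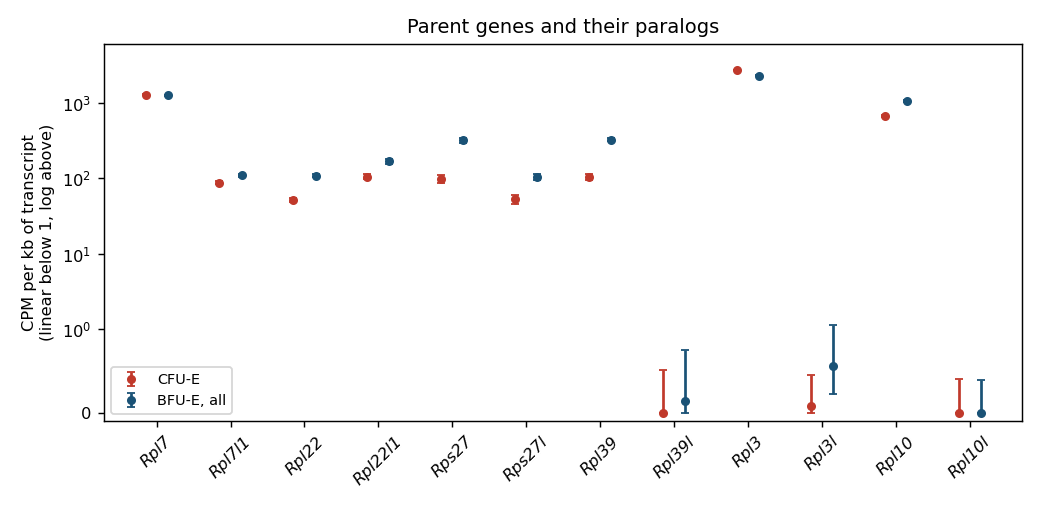
Levels of parent genes and their paralogs in summed CFU-E and BFU-E cells, in CPM per kilobase of transcript, on an axis that is linear below 1 and logarithmic above; bars are exact 95% counting intervals. Rpl22l1 lies above Rpl22 on both plates, and Rpl39l, Rpl3l and Rpl10l lie below 1 on both.

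Near-identical copies limit single values. Of the 83 members with an annotated transcript, 41 shared over 50% of their 50-base windows with another gene, and the median over members was 49.4%. Rps27 shared 98.6% of its windows and Rpl24 81.7%, and Rpl24 had only 4.94 CPM in CFU-E cells and 7.39 CPM in BFU-E cells. How the authors counted reads with several matches is not given in the sources used here, so levels of such genes are uncertain. Rpl4 shared 16.5% of its windows, Rplp0 41.8%, Rpl38 40.2% and Rpl39 16.5%. The Spearman correlation of the shared percentage with log2 fold was 0.19. Rows of ribosomal protein pseudogenes named as such (276 rows) took 0.0398% of counts in CFU-E cells and 0.0350% in BFU-E cells.

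From cell to cell the members varied together. Among members of at least 100 CPM, the median correlation of log2(CPM + 1) between pairs across cells was 0.39 for 60 genes in 89 CFU-E cells and 0.55 for 73 genes in 92 BFU-E cells, or 0.45 for 70 genes without the highest-share cell. Other genes of that level had a median of 0.01 in CFU-E cells and 0.05 in BFU-E cells. Cells of a plate share their reaction conditions, and a cell's member share correlated with its mitochondrial share (Spearman 0.62 over CFU-E cells and 0.35 over BFU-E cells). Long members followed one another more closely than they followed short ones in CFU-E cells, with medians of 0.58 and 0.22, and short members followed one another at 0.35. In BFU-E cells the long-long and short-long medians lay closer, at 0.51 and 0.42, or 0.52 and 0.39 without the highest-share cell. Short members held fewer counts, and the part of counting error in these gaps was not tested.

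Single members stood outside this common movement. In CFU-E cells Rps3a1 and Rpsa followed the sum of the other members most closely (r = 0.84 and 0.81), whereas Rps2 had r = −0.26 and Rpl22 r = −0.02. Rps2 had 60, 180 and 880 CPM as lowest, median and highest CFU-E cell and 50, 235 and 1230 CPM in BFU-E cells, and it shared 71.3% of its windows with 71 other genes, all pseudogenes. In BFU-E cells Rpl7l1 (r = 0.07) and Rps2 (r = 0.21) were the lowest, and without the highest-share cell Rpl22 (r = 0.13) and Rpl7l1 (r = 0.19). Among the 60 members of at least 100 CPM in both cell types, Rpl4 varied least, with a coefficient of variation of 0.26 in CFU-E cells and 0.20 in BFU-E cells, followed by Rpl9 (0.30) and Rps12 (0.32) in CFU-E cells and by Rpl3 (0.23) and Rps4x (0.27) in BFU-E cells. The highest were Rpl22 (0.66), Rps2 (0.65) and Rpl30 (0.62) in CFU-E cells. In BFU-E cells they were Rpl41 (2.31), Rps15 (2.08) and Rps19 (1.63), and without the highest-share cell Rps2 (0.67), Rpl22 (0.53) and Rps26 (0.52). The median over these 60 members was 0.44 in CFU-E cells and 0.67 in BFU-E cells, or 0.38 without the highest-share cell. Rps28, at 123 CPM in BFU-E cells but below the limit in CFU-E cells, had a coefficient of 3.22 in BFU-E cells.

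Within the BFU-E plate, the GM-like cells held a lower share of ribosomal protein counts than the other BFU-E cells. The 88 genes took 4.43% of counts in GM-like cells (4.41 to 4.45%) and 5.28% in other BFU-E cells (4.92% without the highest-share cell). No member differed by 2-fold, where 13.7% of 9944 measured genes were that much higher and 9.13% that much lower in GM-like cells. At 1.5-fold, 0 were higher and 12 lower, with 21.7% and 18.4% over all genes. Of 82 members, 78 lay below the all-gene median of −0.0050, and the member median was −0.30. Much of this rested on the highest-share cell, which is one of the other BFU-E cells: without it 68 members lay below the all-gene median, the member median was −0.11, and only Rpl24 was lower by 1.5-fold (18.1% over all genes), at 4.86 CPM in GM-like cells and 9.07 CPM in other BFU-E cells. The member furthest above was the pseudogene Rps4l at 43.2 CPM in GM-like cells and 31.8 CPM in other BFU-E cells. At the low end Rps27 had 72.2 CPM in GM-like cells and 133 CPM in other BFU-E cells, a log2 fold of −0.88 that was −0.20 without that cell, and Rps18 had 405 CPM in GM-like cells and 656 CPM in other BFU-E cells, a log2 fold of −0.70 that was −0.41 without it. The clusters were found without the members, and keeping the members among the clustered genes gave the same number of GM-like cells, 37.

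Other genes of protein synthesis had a median log2 fold above that of all genes (−0.57). Of 17 translation factors and related genes whose mRNAs also carry a terminal pyrimidine tract, 1 (5.88%) was higher in CFU-E cells by 2-fold or more and none lower. Of all genes, 6.43% were that much higher and 34.3% that much lower. The 17 genes had a median log2 fold of 0.04 and a median coding length of 1083 bases. Eef1a1, which delivers aminoacyl-tRNA to the ribosome, had 31076 CPM in CFU-E cells and 14695 CPM in BFU-E cells, a log2 fold of 1.08 close to that of Rplp0. Npm1, a nucleolar chaperone of ribosome assembly, had 7446 CPM in CFU-E cells and 4045 CPM in BFU-E cells, a log2 fold of 0.88. Of 15 initiation factors outside that list, 0 were higher and 1 lower by 2-fold (median −0.44), beside the same 6.43% and 34.3% of all genes. Under TMM scaling 5 of the 17 and 4 of the 15 were higher and none lower, where 15.2% of all genes were higher and 18.6% lower. Eif2s1, a subunit of the factor that brings the initiator tRNA, had a log2 fold of 0.91, and Eif4a2, an RNA helicase, one of −1.09.

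Mitochondrial ribosomal proteins, encoded in the nucleus and part of the ribosome inside mitochondria, took 0.485% of counts in CFU-E cells and 0.476% in BFU-E cells. Of 77 measured of 83, 1 was higher by 2-fold or more and 9 lower (1.30% and 11.7%, beside 6.43% and 34.3% of all genes), and the median log2 fold was −0.18. Under TMM scaling 16 were higher and 4 lower (20.8% and 5.19%, beside 15.2% and 18.6% of all genes). Of 4 ribosomal protein genes whose symbols fall outside the rule, 3 were measured and none passed 2-fold. Fau, which encodes a small subunit protein fused to a ubiquitin-like one, had 180.3 CPM in CFU-E cells and 239 CPM in BFU-E cells, a log2 fold of −0.41. Rpl36al had 76.3 CPM in CFU-E cells and 105 CPM in BFU-E cells, a log2 fold of −0.46 where Rpl36a had −1.59.

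Regulators of ribosomal protein synthesis and of ribosome stress are set against the 6.43% of all genes that were higher by 2-fold and the 34.3% that were lower. Their counts under TMM scaling are set against 15.2% of all genes higher and 18.6% lower. Of 11 genes that control translation of pyrimidine-tract mRNAs, 1 was higher by 2-fold or more and 2 lower, or 1 and 0 under TMM scaling. Rps6kb2, a kinase of the small subunit protein Rps6, had 76.6 CPM in CFU-E cells and 25 CPM in BFU-E cells, a log2 fold of 1.58, and Tsc1, an inhibitor of the mTOR pathway, had 20 CPM in CFU-E cells and 46.3 CPM in BFU-E cells, one of −1.17. Of 11 measured chaperones and rescue factors of ribosomes, 0 were higher and 3 lower by 2-fold, or 4 and 0 under TMM scaling. Tsr2, the chaperone that carries Rps26 and is mutated in rare cases of Diamond-Blackfan anaemia, had 20.4 CPM in CFU-E cells and 48.04 CPM in BFU-E cells, a log2 fold of −1.19. Aamp had 93.4 CPM in CFU-E cells and 222 CPM in BFU-E cells, a log2 fold of −1.24. Of 3 measured genes of the p53 axis, 2 were lower by 2-fold, and none under TMM scaling: Trp53, which encodes p53, had 190.0 CPM in CFU-E cells and 413 CPM in BFU-E cells, a log2 fold of −1.12, and its inhibitor Mdm4 had 80.9 CPM in CFU-E cells and 182 CPM in BFU-E cells, one of −1.16.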

How the data were processed

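Read counts per gene, whole numbers without any scaling, were deposited by the authors. According to the submitters' processing notes they used STAR 2.4, featureCounts and GRCm38; the annotation release, strand setting and handling of multiple matches: not given in the sources used here. Of 192 cells, 191 columns matched a cell by name, 1 cell was not analysed here and 1 column was not used. Kept cells (at least 100000 counts and 2000 genes) were thinned to 100000 counts (seed 1) and summed per cell type. Levels are counts per 1000000 (CPM) with exact Poisson intervals, shares have exact Clopper-Pearson intervals, ratios exact conditional binomial intervals (all 95%), and folds are on log2(CPM + 1). A group's floor was 3 counts. Clusters came from Ward's method on 10 components of the 1000 most variable genes without the members (mean silhouette 0.31 on the BFU-E plate; on the CFU-E plate, at 0.14, cells were kept as 1 group). Wells received single sorted cells, and doublets were not called. Coordinates and lengths come from GENCODE M21, starts from RefSeq. Lengths are those of 1 protein-coding transcript per gene, chosen by best principal-isoform rank, then longest coding sequence, then longest transcript. Which transcript forms these cells held was not examined, and values by transcript length or per kilobase rest on this choice.

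Genes named were the 5 highest members per kilobase, the 6 highest and 6 lowest and up to 12 past 2-fold by log2 fold, paralogs with parents, the stalk and 5S binders, the 4 largest of the Diamond-Blackfan list with Rps19, the 2 largest of each other list, and the extremes of variation; for some of these no value is reported here. Rpl41, Rps18, Rps20, Rps26, Rpl31 and Rpl24 were added after their values were seen, as were Rpl36a beside Rpl36al and the genes at the extremes of cell correlation, shared windows and the GM-like comparison. The members and lists were chosen with earlier results of these data known. Calculations used Python 3.11.15, numpy 2.4.6, pandas 2.3.3, scipy 1.17.1 and scikit-learn 1.9.0; alternatives used edgeR 4.0.16 (TMM factors) and DESeq2 1.42.0 (size factors) in R 4.3.3. Folds were checked on simulated counts with known changes, both groups drawn from a summed BFU-E profile. The known shift in total counts was removed first, so this check does not cover the choice of scaling.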

Additional observations from a re-analysis of the deposited data

How the results depend on the processing

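No paired analysis was possible because replicate numbers name single cells, each cell type is 1 sample and no test was made. Leaving out the BFU-E cell of highest member share was chosen after seeing the data. The log2 ratio of the summed member share, CFU-E over all BFU-E cells, was 0.048; it was 0.14 with a filter of 250000 counts and 4000 genes, 0.13 without thinning, 0.061 without the 3 CFU-E cells with lymphoid markers, 0.073 over counts outside mitochondrial genes and 0.11 without the highest-share cell. Against the other BFU-E cells the ratio was −0.049, and it turned to 0.051 with the stricter filter, 0.050 without thinning and 0.054 without the highest-share cell; it was −0.036 without the lymphoid-marker cells, −0.024 outside mitochondrial genes, −0.061 as the mean within first-index groups and −0.060 with clusters from 500 variable genes. GM-like over other BFU-E cells gave −0.25, and −0.21 with the stricter filter, −0.22 without thinning, −0.27 with 500 variable genes and −0.15 without the highest-share cell.

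The median member fold, CFU-E over all BFU-E cells, was −0.51 without thinning, −0.51 without the highest-share cell, −0.056 under TMM scaling and 0.0089 under median-of-ratios scaling. Against the other BFU-E cells (−0.74) it was −0.60 with the stricter filter, −0.63 without thinning, −0.14 and −0.074 under these scalings and −0.59 without the highest-share cell. GM-like over other BFU-E cells (−0.30) it was −0.19 with the stricter filter, −0.19 as a mean of log2 values over cells and −0.11 without the highest-share cell. Members at least 2-fold lower than in BFU-E cells numbered 12 with the stricter filter, 13 without the highest-share cell, 8 under TMM and 4 under median-of-ratios scaling, instead of 21, and those higher numbered 4 under either scaling instead of 2. Of all genes, 34% were lower without the highest-share cell, 18.6% under TMM and 17.4% under median-of-ratios scaling. Under the scalings 15.2% and 16.9% of all genes were higher. Against the other BFU-E cells, 8 and 7 were lower instead of 24 under the scalings, and 4 were higher instead of 1 under either. In that comparison under TMM scaling, 15.7% of all genes were lower and 15.8% higher. Without the lymphoid-marker cells or without the highest-share cell 2 members were higher, beside 6.13% of all genes in the latter setting. All-gene shares are not reported here for the stricter filter, the lymphoid-marker setting or median-of-ratios scaling against the other BFU-E cells. The coding-length correlation of 0.67 was 0.42 with transcript length and 0.58 to 0.68 elsewhere.

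Of 620 values of the named members, 18 changed sign where the fold's counting interval had excluded 0, all under TMM or median-of-ratios scaling. Over all 82 measured members, the sign of the fold over all BFU-E cells changed for 24 and 27 under these scalings and for 3 without the highest-share cell, Rpl41 among them. The 18 values were, over all BFU-E cells, those of Rpl5 (0.42 and 0.48), Rplp1 (0.34 and 0.40), Rpl7l1 (0.25 and 0.32) and Rps4x (0.34 and 0.40). Over the other BFU-E cells they were Rpl5 (0.38 and 0.45), Rplp1 (0.23 and 0.30), Rpl7 (0.54 and 0.61), Rpl7l1 (0.28 and 0.35) and Rps4x (0.29 and 0.36). The causes of the other changes were not tested. At 100000 counts per cell, genes below about 10 CPM hold under 1 count per cell, which limits single-cell values of the lowest members.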
